A study of Mus musculus with 6 samples.

Results

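The genes described here make and run the ubiquitin-proteasome system, and were followed in mouse embryonic stem cells that lack the histone deacetylase HDAC1 and in their wild-type counterparts. Members were chosen by name: every gene whose platform symbol begins with Psma, Psmb, Psmc, Psmd, Psme, Ube2, Cul, Fbxo, Fbxl or Fbxw, or with Usp and a digit, apart from Psmb8, Psmb9, Psmb10, Usp9x and Usp9y. This gave 107 of the 8251 genes on the array that a probe set names alone, 39 with a proteasome prefix and 68 of the ubiquitin enzyme families. A gene was read from its brightest probe set by mean signal over all arrays. The members have 145 probe sets in all, and 5 further probe sets that carry a member's name together with another gene's were set aside.

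Ubiquitin is a small protein that cells attach to other proteins to mark them, often for destruction. An E1 enzyme charges an E2 conjugating enzyme, and a ligase then moves ubiquitin from the E2 to the substrate. Cullin ligases pick their substrates through adaptors, of which the F-box proteins are 1 family, and deubiquitinases of the USP family take ubiquitin off again. Marked proteins are unfolded by the 19S cap of the proteasome, with its ring of ATPases, and cut in the 20S core, built from alpha and beta rings. Pluripotent stem cells are known for high proteasome activity.

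There were 3 HDAC1 knockout and 3 wild-type samples, titled as biological replicates, each with 1 array (Affymetrix MG U74Av2, 1 colour, biotin label). The labels derive the knockout cells from embryos without HDAC1 and the wild-type cells from wild-type embryos, and the series' design text places both in 1 litter. The labels name no treatment, and the stated medium held serum with either leukemia inhibitory factor on gelatin or feeder cells without it, with no record of which applied to which sample. The labels do not say how many lines or cultures stand behind the replicates of a genotype, and the p-values reflect only how far these arrays differ within a genotype, part of which can be technical. The sex chromosomes of the cells are not given either.

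Values are linear signals as deposited, in MAS5 units, and differences are HDAC1 knockout minus wild type on the log2(signal + 16) scale with limma's standard error. A gene was called at a Benjamini-Hochberg adjusted p under 0.05 over all 12422 tested probe sets. Signals at or under 116.4 were treated as background. Signals of different probe sets are not comparable, so levels are set against each other only between arrays.

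Median signals of the arrays were 186.6 to 200.4 in knockout and 200.1 to 207.5 in wild-type samples. Hdac1 itself had a signal of 141.8 ± 48.0 in knockout and 2310.3 ± 104.7 in wild-type cells (SD, n = 3 each), 15.2-fold lower. Of 13 measured stem cell markers none was at background, 6 were called higher and none lower, and their summed signal was 70476.9 to 72437.3 on knockout and 51438.9 to 55033.4 on wild-type arrays. Of 27 feeder fibroblast markers 6 were called lower and none higher, with summed signals of 16302.7 to 17094.6 on knockout and 21548.5 to 22058.9 on wild-type arrays. The brightest probe sets weigh most in such sums. Log2 differences were below 0 for 23 of the 27 and above 0 for 4. Fn1 and Col1a2 were level (0.05 and 0.04), and Sparc was higher without overlap and without a call (0.46). Fap, Loxl1, Lum, Pdgfrb, Postn and Prrx1 were at background in both genotypes, and Twist1 and Vim in knockout cells alone. The beta-actin control's ratio of 3' to 5' signal was 1.04 to 1.09 on knockout and 1.15 to 1.21 on wild-type arrays. The part of these shifts in the results below was not tested.

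Across the 107 members, 2 rose in the knockout cells and none fell. The 2 were Fbxo15, an F-box gene known as a marker of pluripotent cells, and Usp48, a deubiquitinase. They are 1.87% of the members, against 4.58% of all 8251 genes called in either direction. Higher calls made up 2.7% of all genes and lower calls 1.88%. At an unadjusted p under 0.05 there were 17 higher and 7 lower members, together 22.4%, against 17.1% of all genes (8.45% higher and 8.65% lower). Among genes with a mean signal over background, the shares were 22.6% of 93 members and 21.6% of 5684 genes. Knockout and wild-type signals did not overlap for 25 members, 17 higher and 8 lower, or 23.4%, against 22.4% of all genes (10.3% higher and 12.1% lower). Over background this was 24.7% of the 93 members, against 26.8% of the 5684 genes. The median log2 difference was 0.00 over the members and -0.04 over all genes, and 55 members were above 0 and 52 below.

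Fbxo15 encodes the substrate receptor of a cullin ligase, and its gene, on chromosome 18, is a known target of the factors Oct4 and Sox2. Its signal was 2138.9, 2134.5 and 2232.5 on knockout arrays and 1391.9, 1496.7 and 1158.4 on wild-type arrays. All 3 knockout values lay above every wild-type value and close to each other. The gene rose 1.61-fold, a log2 difference of 0.69 ± 0.10 (SE; limma adjusted p = 0.00439). In the same arrays Sox2 rose 1.39-fold and Nanog 2.11-fold, while 7 of the 13 stem cell markers were not called. Among these, Pou5f1, which encodes Oct4, had 10618.6, 10337.4 and 11090.8 on knockout arrays and 11156.0, 8928.9 and 9944.4 on wild-type arrays, with overlap (0.10 ± 0.09, limma adjusted p = 0.706). Dppa5a, Utf1 and Tdgf1 had differences of 0.09, -0.01 and -0.02 without a call. Esrrb, Dppa3 and Sall4, also without a call, were higher in the knockout cells without overlap. Their differences were 0.85, 0.44 and 0.30 (limma adjusted p = 0.0779, 0.21 and 0.116).

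Usp48 encodes a deubiquitinase found in the nucleus, and its gene lies on chromosome 4. Its signal was 2698.4, 2646.5 and 2872.3 on knockout arrays and 2001.0, 2177.9 and 1715.3 on wild-type arrays, again without overlap. It rose 1.40-fold, by 0.48 ± 0.10 on the log2 scale (limma adjusted p = 0.0232). The call was lost without HDAC1 knockout replicate 1 (adjusted p = 0.0663), replicate 2 (0.0786) or replicate 3 (0.107), and without wild type replicate 1 (0.0668). Without a variance trend in the fit neither gene was called (adjusted p = 0.138 for Fbxo15 and 0.261 for Usp48).

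**Figure D1:**
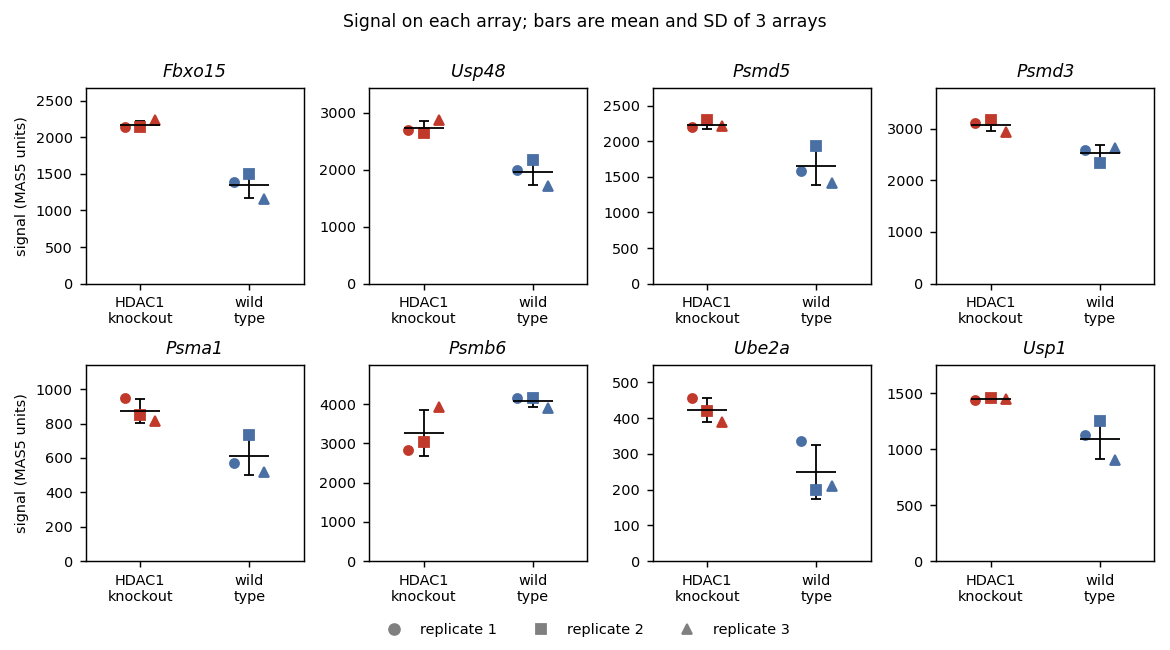
Signal (MAS5 units, linear axis from 0) of 8 members on each array, HDAC1 knockout left and wild type right; symbols mark the replicate, bars the mean and SD of 3 arrays. Fbxo15 and Usp48 were called, while the other 6 were not, although for all but Psmb6 every knockout point lies above every wild-type point.

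The 39 proteasome genes were close to level between the genotypes. None was called in either direction, 6 were higher and 2 lower at an unadjusted p under 0.05, and the median log2 difference was 0.01. At that p the share was 20.5%, against 17.1% of all genes. Among genes with a mean signal over background it was 19.4% of 36 proteasome genes and 21.6% of 5684 genes. Genotypes did not overlap for 25.6% of the 39, against 22.4% of all genes. The proteasome genes were also precisely measured. Over the 36 with all arrays above background, the median coefficient of variation between replicates was 5.50% in knockout and 8.10% in wild-type cells, against 10.3% and 12.3% over 4790 genes of that kind. The 95% interval of the difference lay within 0.5 either way on the log2 scale for 32 of the 39, or 82.1%, against 23.8% of all genes. That limit was chosen after the values were seen. Over background the share was 88.9% of the 36, against 34.6% of the 5684. The median standard error was 0.10 for the proteasome genes and 0.26 for all genes, and 0.10 and 0.17 over background. The fit ties the standard error to the mean signal, and the genes were not matched for signal.

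**Figure D2:**
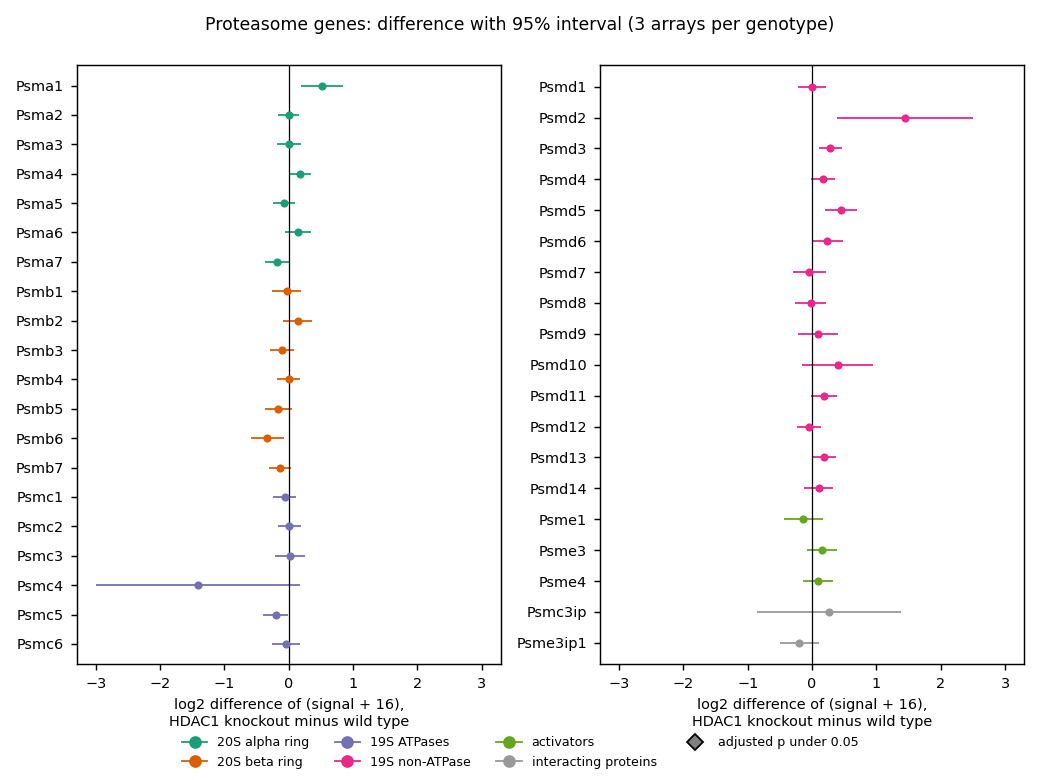
Log2 difference (HDAC1 knockout minus wild type, horizontal axis) of each proteasome gene with its 95% interval, coloured by place in the complex. Most points lie within 0.5 of 0 with short intervals, and the wide intervals belong to Psmc4, Psmd2 and Psmc3ip, whose mean signals were at or near background.

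The 7 alpha ring genes, which form the gated outer rings of the core, had a median difference of 0.01, with 4 above 0 and 3 below. Psma2 had 7569.6, 7268.8 and 7097.4 on knockout arrays and 6971.8, 7733.0 and 7287.6 on wild-type arrays. These values overlap fully, and the 95% interval of the difference ran from -0.17 to 0.17. Psma3 was as level, with 6840.3 ± 364.6 in knockout and 6823.6 ± 546.5 in wild-type cells (SD, n = 3 each).
Psma1 stood furthest out, with 950.2, 851.0 and 816.4 in knockout and 573.2, 732.6 and 521.3 in wild-type cells. Its groups did not overlap, and the difference was 0.52 ± 0.15 without a call (limma adjusted p = 0.0899). It was called without wild type replicate 2 (adjusted p = 0.0379). Psma4 was also without overlap on the higher side, at 3919.7 ± 142.2 in knockout and 3470.2 ± 103.3 in wild-type cells (adjusted p = 0.287), and Psma7 on the lower side, at 2514.3 ± 50.1 and 2871.4 ± 235.1 (adjusted p = 0.324).

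The beta ring holds the cutting sites. Of its 7 genes outside the immunoproteasome, 6 had a difference below 0 and the median was -0.10, but median centring of the arrays turned that count to 4 below and 3 above, with a median of -0.03. Psmb6, the caspase-like catalytic subunit, had 2822.6, 3038.7 and 3930.9 in knockout cells against 4161.3, 4157.8 and 3896.6 in wild-type cells. Knockout replicate 3 lay within the wild-type range and the other 2 below it. The difference was -0.33 ± 0.12 (limma adjusted p = 0.184), and without HDAC1 knockout replicate 3 it was -0.47 and called (adjusted p = 0.0312).
Psmb5, the chymotrypsin-like subunit, was read by a pair of probe sets. The brighter had 2951.9 ± 101.8 in knockout and 3315.2 ± 376.9 in wild-type cells (difference -0.16, adjusted p = 0.485). The dimmer had 218.7, 266.8 and 364.9 on knockout arrays and 476.9, 436.8 and 619.9 on wild-type arrays, without overlap (difference -0.83, adjusted p = 0.0788). With the mean of both, Psmb5 was called lower (-0.50, adjusted p = 0.0396). Psmb7, the trypsin-like subunit, had 2591.3 ± 56.9 in knockout and 2861.9 ± 161.1 in wild-type cells, without overlap and without a call (adjusted p = 0.448). Psmb4, a structural subunit, was level, with a 95% interval of -0.18 to 0.18.

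The inducible beta subunits that replace these in the immunoproteasome were left out of the members. Psmb10 had 454.5 ± 49.5 in knockout and 639.3 ± 57.0 in wild-type cells (difference -0.48, limma adjusted p = 0.121), and Psmb8 and Psmb9 were at background in both.

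The 6 ATPases, which unfold substrates and open the core, had a median difference of -0.05. Psmc2 had a 95% interval of -0.16 to 0.18. Psmc5 had 1581.5, 1594.5 and 1577.8 on knockout arrays against 1778.2, 1991.3 and 1732.5 on wild-type arrays. All 3 knockout values were below the wild-type ones and nearly equal to each other, yet the difference of -0.21 ± 0.09 had no call (limma adjusted p = 0.29). The probe set of Psmc4 was above background on 2 of 6 arrays, both wild type, with 83.7, 81.2 and 5.2 in knockout and 321.5, 63.3 and 128.2 in wild-type cells. As a lower bound on the group means this is 1.18-fold lower, without a call (limma adjusted p = 0.396). The genotypes overlapped and the 95% interval of the difference ran from -2.99 to 0.17, so no decrease is established. Psmc1 had 1696.2 ± 84.7 in knockout and 1773.8 ± 39.4 in wild-type cells (-0.06, adjusted p = 0.801).

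The 14 Psmd genes encode the remaining parts of the cap, the lid with its deubiquitinase Psmd14 and the ubiquitin receptor Psmd4, and also Psmd5, Psmd9 and Psmd10, chaperones that help to assemble the base. Their median difference was 0.17, with 11 above 0 and 3 below, and 14 and 0 after median centring. The split was 10 and 4 with quantile normalization (median 0.14) and with the mean of all probe sets (0.13). Without HDAC1 knockout replicate 3 it was 9 and 5 (0.15). In 5 of the 14 genes (35.7%) the genotypes did not overlap, each time higher in the knockout cells. These include Psmd2, which was at background on all wild-type arrays. Of all genes, 10.3% had no overlap on that side and 22.4% on either. Among the 5684 genes with a mean signal over background, 730 had no overlap on that side and 26.8% on either. None of the 14 was called. Psmd5 came closest, with 2194.3, 2294.4 and 2206.4 in knockout cells against 1584.2, 1931.9 and 1418.4 in wild-type cells, 0.45 ± 0.11 (limma adjusted p = 0.0564). The wild-type arrays spread more widely than the knockout arrays. Psmd5 was called in 5 of 18 other settings, with an adjusted p from 0.015 to 0.335. Psmd3, a lid subunit, had 3110.1, 3161.2 and 2931.6 against 2588.3, 2338.9 and 2625.7, 0.28 ± 0.08 (adjusted p = 0.0968), and was called after median centring alone (adjusted p = 0.0379).
Psmd14, Psmd4 and Psmd11, a lid subunit, had differences of 0.10, 0.17 and 0.19 without a call. The dimmer probe sets of Psmd11 gave 0.04 and -0.45 (limma adjusted p = 0.914 and 0.47). The latter was lower in the knockout cells without overlap, opposite to the brightest. Psmd2, which binds ubiquitin-like shuttles, had a log2 difference of 1.44 (adjusted p = 0.159), but all its wild-type arrays (32.1, 23.8 and 42.3) and 1 of its knockout arrays (168.2, 140.8 and 61.3) were at background, so no fold is given. Psmd10, on the X chromosome, had 257.4, 266.3 and 358.3 in knockout and 211.4, 259.8 and 184.5 in wild-type cells (0.40, adjusted p = 0.512).

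The activators open the core in place of the 19S cap. Psme1 (PA28 alpha), Psme3 (PA28 gamma, a nuclear form) and Psme4 (PA200) had differences of -0.14 ± 0.14, 0.16 ± 0.11 and 0.09 ± 0.10, and all 3 intervals lay within 0.5 of 0. Psmc3ip and Psme3ip1 begin with the same letters, but their products are not proteasome subunits. Their signals were 118.5 ± 5.5 and 710.0 ± 90.1 in knockout cells, against 112.0 ± 67.7 and 815.3 ± 83.7 in wild-type cells, without a call. Leaving both out kept the proteasome median at 0.01.

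Promoter sequence is shown for Usp48, a called gene, for Psmb6, the beta ring gene with the smallest p, and for Psmc6 and Psmd12, the 2 proteasome members that hold both of the motifs CCGGAAG and TGACNNNGC. Psmc6 and Psmd12 had differences of -0.04 and -0.05 without a call. Each sequence is the 250 bases before the gene's start from RefSeq, build GRCm38.p6, 5' to 3' on the gene's strand. Capitals mark, on either strand, CCGGAAG (the core that ETS factors bind), TGACNNNGC (the antioxidant response element through which Nfe2l1 is known to drive proteasome genes) and GGGCGG (the box of Sp factors, with which HDAC1 is known to act). The 4 regions, all on the plus strand, are chr4:137593922-137594171, chr11:70525107-70525356, chr14:45329574-45329823 and chr11:107479278-107479527.
Usp48: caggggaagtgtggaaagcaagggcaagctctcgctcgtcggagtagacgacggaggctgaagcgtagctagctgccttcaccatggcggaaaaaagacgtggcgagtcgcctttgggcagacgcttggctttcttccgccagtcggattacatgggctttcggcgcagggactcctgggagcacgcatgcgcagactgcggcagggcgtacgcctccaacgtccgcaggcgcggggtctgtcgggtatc
Psmb6: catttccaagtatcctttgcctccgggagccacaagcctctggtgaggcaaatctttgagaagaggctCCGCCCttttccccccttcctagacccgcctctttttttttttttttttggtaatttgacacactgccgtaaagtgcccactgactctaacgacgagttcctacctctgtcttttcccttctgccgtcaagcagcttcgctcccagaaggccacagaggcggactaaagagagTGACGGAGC
Psmc6: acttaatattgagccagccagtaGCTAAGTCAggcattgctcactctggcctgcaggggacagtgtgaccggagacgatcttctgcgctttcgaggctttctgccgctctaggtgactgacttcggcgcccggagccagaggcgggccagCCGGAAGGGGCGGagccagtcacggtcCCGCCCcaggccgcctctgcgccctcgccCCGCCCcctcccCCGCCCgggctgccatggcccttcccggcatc
Psmd12: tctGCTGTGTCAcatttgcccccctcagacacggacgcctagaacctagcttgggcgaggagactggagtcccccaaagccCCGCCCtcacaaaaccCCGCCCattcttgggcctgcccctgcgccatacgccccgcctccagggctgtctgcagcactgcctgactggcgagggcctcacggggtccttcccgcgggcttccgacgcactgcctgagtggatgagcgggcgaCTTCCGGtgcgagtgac
The Usp48 window holds none of the 3 letter strings. In Psmb6 the TGACNNNGC match ends at the last base before the start, and its first base is at position -9. In Psmd12 the CCGGAAG match, on the minus strand, starts at position -17, and in Psmc6 it starts at -100.

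Promoters could be matched by symbol for 33 of the 39 proteasome genes (36 promoters) and 48 of the 68 enzyme genes (64 promoters), and some genes have several. CCGGAAG was found in 13 of 36 proteasome promoters (36.1%) and 13 of 64 enzyme promoters (20.3%), against 11.3% of the 8412 promoters of genes on the array and 6.91% of all 32851 promoters. GGGCGG was found in 55.6% of proteasome and 67.2% of enzyme promoters, against 52.8% of the array's and 32.7% of all; the shares that follow keep this order. TGACNNNGC was found in 13.9% and 10.9%, against 11.7% and 10.2%. The looser TGANNNNGC, which includes it, gave 38.9% and 29.7%, against 36.2% and 35.2%. CCAAT was found in 38.9% and 18.8%, against 34.6% and 33.8%, and CCAATCA, which lies within it, in 11.1% and 6.25%, against 8.94% and 7.23%. The other 4 strings searched were TATAAA (8.33% and 6.25%, against 8.94% and 12.4%), CACGTG (11.1% and 4.69%, against 8.21% and 6.02%), TGACGTCA (0 and 1.56%, against 2.21% and 1.55%) and the palindrome of nuclear respiratory factor 1 (2.78% and 0, against 1.32% and 0.782%). Both strands were searched in windows of 250 bases, and the shares are descriptions without a test. The string in which proteasome promoters stood furthest above the array's was CCGGAAG.

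The 68 enzyme genes had the same centre as the proteasome genes and a wider spread. Their median difference was 0.00, with 34 above 0 and 34 below, and the quartiles were -0.20 and 0.24, against -0.07 and 0.17 for the proteasome genes. Fbxo15 and Usp48 made 2 higher calls (2.94%) and there was no lower one. At an unadjusted p under 0.05 there were 11 higher and 5 lower, together 23.5%, against 17.1% of all genes. Among genes with a mean signal over background the shares were 24.6% of 57 enzyme genes and 21.6% of 5684 genes. The wider spread goes with less precise values: the median standard error was 0.18, 24 of 68 intervals (35.3%) lay within 0.5 of 0, and 11 of 68 had a mean signal at background against 3 of 39. No difference between proteasome and enzyme genes was tested.

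**Figure D3:**
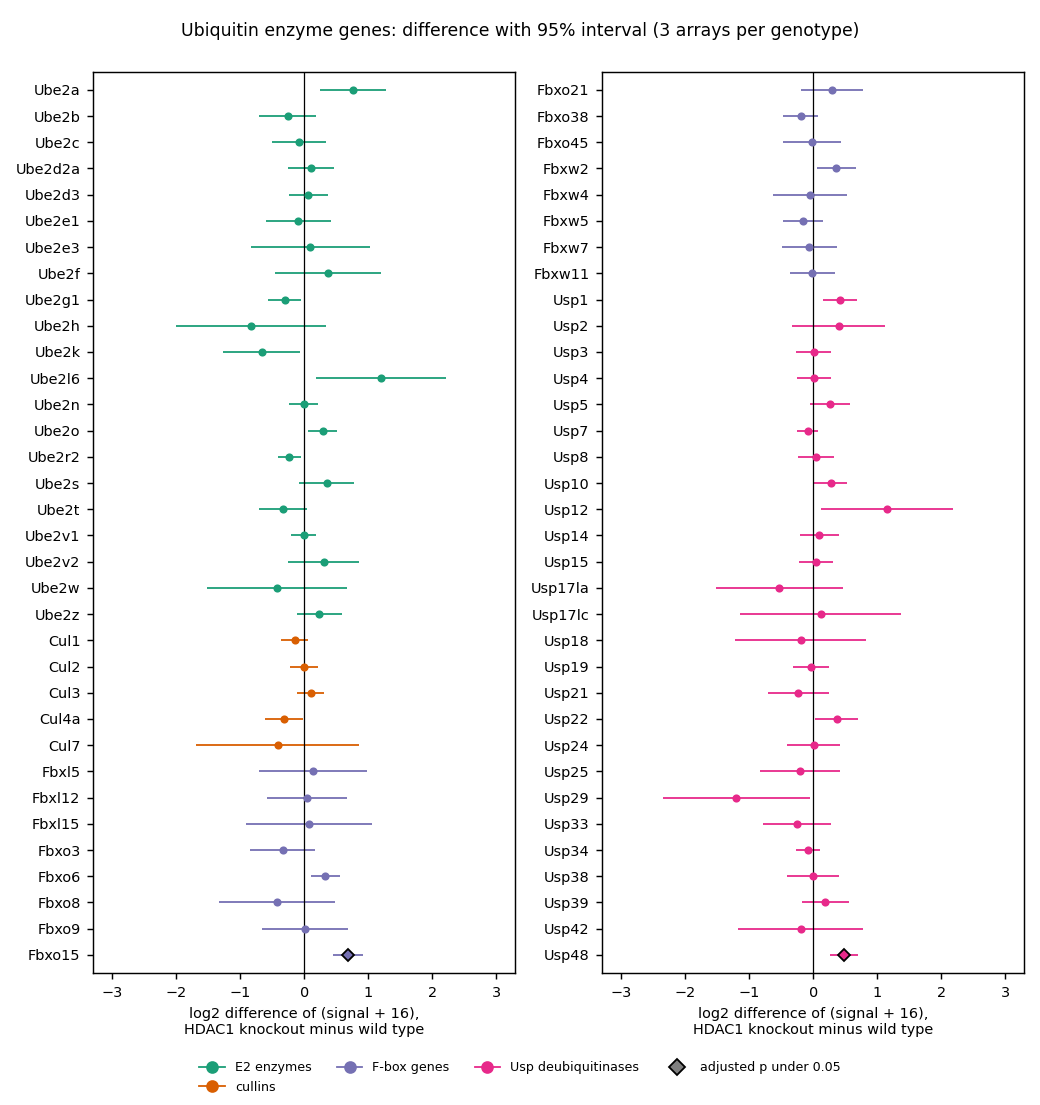
Log2 difference (HDAC1 knockout minus wild type, horizontal axis) of each ubiquitin enzyme gene with its 95% interval, coloured by family. The diamonds for Fbxo15 and Usp48 are the only calls, and both lie right of 0.

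E2 enzymes carry activated ubiquitin. None of the 21 was called, and at an unadjusted p under 0.05 there were 3 on each side, together 28.6%. That share was 17.1% of all genes and 21.6% of genes with a mean signal over background, and 1 of the 21 was at background. Ube2a (Rad6a), on the X chromosome, had 457.1, 419.6 and 389.5 on knockout arrays against 336.1, 200.3 and 209.8 on wild-type arrays. The groups did not overlap, and the difference of 0.76 ± 0.23 had no call (limma adjusted p = 0.123). Over X-linked genes above background the median difference was 0.36 and 51 of 173 were called higher, against -0.03 over autosomal genes, and genotype and sex chromosomes cannot be told apart here. Ube2b (Rad6b), its autosomal partner, had 287.2 ± 31.7 in knockout and 348.9 ± 49.0 in wild-type cells (-0.26, adjusted p = 0.62).

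Ube2o, a combined E2 and ligase, had 988.0, 953.5 and 1080.4 in knockout cells against 840.3, 816.9 and 807.6 in wild-type cells, without overlap (0.29 ± 0.10, adjusted p = 0.203). Its second probe set had 0.60 (adjusted p = 0.196) and another was at background. Ube2r2, which serves cullin ligases, had 2172.1, 2239.8 and 2274.3 against 2835.2, 2568.5 and 2478.8, without overlap on the lower side (-0.23 ± 0.08, limma adjusted p = 0.191). Ube2g1 was likewise lower without overlap at 1251.0 ± 149.3 in knockout and 1548.6 ± 160.3 in wild-type cells (adjusted p = 0.228).
Ube2k had 462.1, 550.1 and 1061.9 on knockout arrays against 869.6, 952.5 and 1343.6 on wild-type arrays. Replicate 3 was the highest in both genotypes. The difference of -0.67 had no call (adjusted p = 0.272), and without HDAC1 knockout replicate 3 it was -1.02 with a call (adjusted p = 0.0312). Ube2l6, an E2 for the ubiquitin-like protein ISG15, was at background on all wild-type arrays (43.9, 95.5 and 54.0) and had 97.6, 233.8 and 182.3 on knockout arrays, at least 1.34-fold higher without a call (adjusted p = 0.232). Ube2n and its partner Ube2v1, which build chains linked through lysine 63, were level at -0.01 ± 0.10 and -0.01 ± 0.09. The cell cycle E2 genes Ube2c and Ube2s, which serve the anaphase-promoting complex, had -0.08 and 0.35 without a call, and wild type replicate 1 of Ube2s (1855.4) stood below the other wild-type arrays (3102.2 and 3168.9).

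Cullins are the scaffolds of the largest ligase family. Of 5 measured, 1 was above 0 and 4 below, and none was called. Without HDAC1 knockout replicate 1, 3 were above and 2 below. Cul4a had 577.1, 551.0 and 646.4 in knockout cells against 832.9, 669.7 and 727.1 in wild-type cells, without overlap (-0.32 ± 0.13, limma adjusted p = 0.281). Cul1, the scaffold that holds F-box proteins, had 1343.8 ± 84.8 in knockout and 1493.4 ± 77.5 in wild-type cells (-0.15, adjusted p = 0.506). Cul2 and Cul3 had 0.00 and 0.10, and Cul7 was at background in both.

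Of the 16 F-box genes, Fbxo15 was the 1 call, with 8 above 0 and 8 below. Fbxo6, which binds glycoproteins for disposal from the endoplasmic reticulum, had 1743.5, 1741.5 and 1451.7 in knockout cells against 1241.9, 1384.6 and 1291.4 in wild-type cells, without overlap (0.33 ± 0.10, limma adjusted p = 0.134). Its second probe set gave 0.33 as well, at background. Fbxw2 had 630.3 ± 27.2 in knockout and 489.8 ± 52.6 in wild-type cells, also without overlap (adjusted p = 0.239). Fbxw7, the receptor for cyclin E and Myc, had -0.06 ± 0.19, and Fbxw11, a receptor for beta-catenin, -0.01 ± 0.16. Fbxl12 and Fbxl15 were at background on all arrays.

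Among 26 deubiquitinases, Usp48 was the 1 call, with 15 above 0 and 11 below. Usp1, which works on FANCD2 and PCNA in DNA repair, had 1436.8, 1458.9 and 1448.8 on knockout arrays against 1124.1, 1248.0 and 899.4 on wild-type arrays. The knockout values were nearly equal and all above the wild-type ones, but the difference of 0.42 ± 0.12 had no call (limma adjusted p = 0.105). Usp22, a subunit of the SAGA complex that works on histones, had 660.5 ± 107.1 in knockout and 505.5 ± 39.2 in wild-type cells, without overlap (adjusted p = 0.278). Usp10, which acts on p53, had 2369.0 ± 114.5 and 1973.3 ± 317.0 with overlap (adjusted p = 0.294). Usp7, which stabilises Mdm2, was level at -0.09 ± 0.07, with 2385.2, 2363.9 and 2455.7 in knockout and 2603.9, 2523.0 and 2528.5 in wild-type cells, a small gap without overlap and without a call (adjusted p = 0.665). Usp14, which sits on the proteasome, had 0.10 ± 0.14. Usp12 had 66.3 ± 11.5 in knockout and 23.8 ± 17.8 in wild-type cells (adjusted p = 0.265), and it, Usp17lc, Usp18 and Usp42 were at background on all 6 arrays.

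Of the 107 members, 29 had several probe sets. None of their 38 dimmer probe sets was called, against 3.88% of all probe sets on the array (2.25% higher and 1.63% lower). Of the 23 dimmer ones above background, 15 had the same sign as the brightest and 8 the opposite. Usp2 had 0.40 for the brighter and 1.06 for the dimmer (limma adjusted p = 0.647 and 0.226). The dimmer was at background on all wild-type arrays (57.1, 65.9 and 67.3). With every array above background, the sets of Psmd11 gave 0.19, 0.04 and -0.45, and those of Psmb5 -0.16 and -0.83.

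The groups' median levels on each array, relative to each gene's mean over 6 arrays on the log2 scale, differed little. For the 39 proteasome genes they were 0.05, 0.01 and 0.00 on knockout arrays and 0.01, 0.04 and -0.06 on wild-type arrays. For the 68 enzyme genes they were -0.02, 0.01 and 0.06 on knockout arrays and 0.04, 0.00 and -0.01 on wild-type arrays. In both groups the arrays of the genotypes overlapped.

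**Figure D4:**
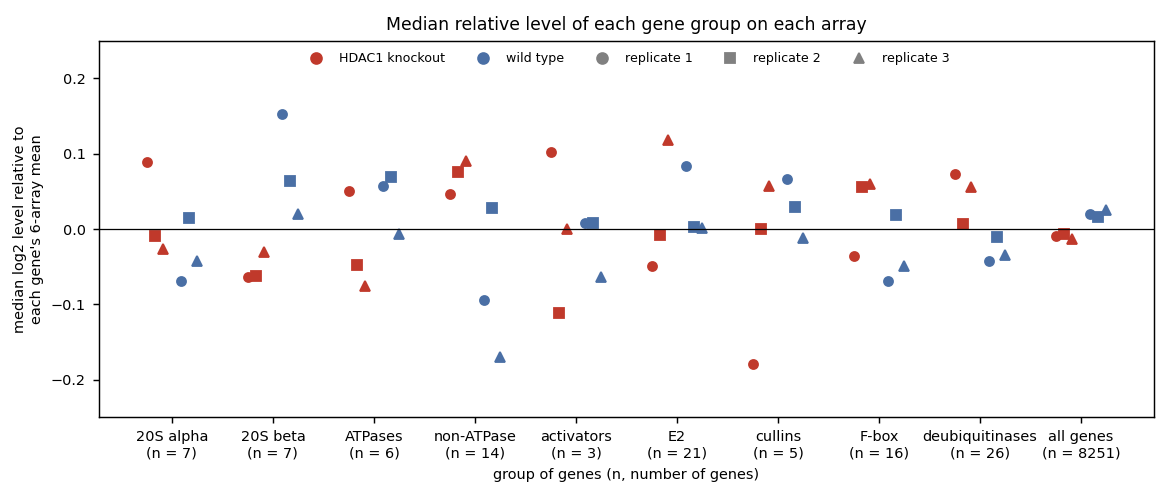
Median log2 level of each gene group on each array relative to the genes' own 6-array means (vertical axis), HDAC1 knockout in red left of wild type in blue, symbols for replicates. All medians lie within 0.2 of 0, and the genotypes do not overlap for non-ATPase genes and deubiquitinases, higher in the knockout, nor for beta ring genes and all genes, lower in the knockout.

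The members' partners in the pathway were followed in lists of genes, beside which 2.7% of all genes were called higher and 1.88% lower. Of 6 measured genes for E1 enzymes and ubiquitin-like proteins, and of 22 for partners of cullin ligases and the COP9 signalosome, none was called, with medians of 0.02 and 0.05. Of 12 genes of the anaphase-promoting complex none was called (median -0.11). Of 26 HECT and RING ligases 3 rose and none fell: Arih2 1.78-fold, the X-linked giant ligase Huwe1 1.49-fold and Trim25, a ligase of antiviral sensing, 1.44-fold (limma adjusted p = 0.00217, 0.00384 and 0.042). Of 6 deubiquitinases outside the members 3 rose and none fell: Usp9x 1.84-fold and Otud5 1.42-fold, both X-linked, and Uchl1, abundant in neurons and germ cells, 1.33-fold (adjusted p = 0.000565, 0.0476 and 0.0343). Of 17 genes for assembly factors, shuttles and p97, the X-linked shuttle Ubqln2 rose 1.82-fold (adjusted p = 0.00794) and none fell. Of these 7 called partners 4 are X-linked, against 52 of the 223 genes called higher on the whole array. Of all 259 X-linked genes, 52 were called higher and 6 lower.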

How the data were processed

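RNA of 3 HDAC1 knockout and 3 wild-type samples was hybridised to MG U74Av2 arrays. Each deposited value is a linear intensity that summarises 1 probe set. The submitters' processing notes name MAS5 as the tool of the authors. Neither its version nor its settings were stated in the labels or headers used. The mean signal after trimming 2% at each end was 500.3 on every array, so the deposited intensities were already scaled, and a change of all transcripts together cannot be seen. The 6 experiment headers were identical and show no batch.

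Of 12488 probe sets, 66 controls were left out. Of the rest 10833 had 1 gene symbol, 396 several and 1193 none; 10817 matched the RefSeq table of GRCm38.p6 by gene identifier, which gave names and chromosomes. R 4.3.3 and limma 3.58.1 fitted log2(signal + 16) over all 6 arrays without a covariate, using lmFit and then eBayes with trend. Background is the 95th percentile of 19 bacterial and yeast control probe sets. Where a group's mean lay at or under it, a fold is a lower bound for the group means against that level, not a confidence limit. Fold changes are on the pseudocount scale, which understates dim genes. The number of arrays limits the precision.

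Any member could be named with levels. Full statistics were planned for called members, the 3 smallest p-values and the brightest member of each family, X-linked members and called partners. Not all of these were given in full: Cul3, Psmc6 and the brightest probe set of Psmd11, for example, have the difference alone. Others, such as Ube2k and Ube2s, were chosen after their values were seen. The members and lists were chosen with earlier results of these data known. The fit was tested on simulated data with 200 changed probe sets among 12422: 63% of 2-fold and 93.5% of 4-fold changes were called in the right direction, and 9 unchanged probe sets were called.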

Additional observations from a re-analysis of the deposited data

How the results depend on the processing

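The 2 higher calls and 0 lower calls were recomputed under 18 other settings: pseudocounts of 1 and 64, quantile normalization, median centring, removal of the dimmest 25% or 50% of probe sets, robust eBayes or eBayes with no trend, a replicate block, each array left out, adjustment over genes, averaging of a gene's probe sets, and no X-linked or Y-linked genes. Members called higher were 4 with median centring (Fbxo15, Usp48, Psmd3 and Psmd5), 0 without a trend and 1 with the replicate block, and 1 to 4 when single arrays were left out. Members called lower were 1 with the mean of all probe sets (Psmb5) and 0 to 2 when single arrays were left out, the 2 being Psmb6 and Ube2k without HDAC1 knockout replicate 3. Fbxo15 was called in 17 of 18 settings, with log2 differences from 0.58 to 0.76. Usp48 was called in 12 of 18, from 0.39 to 0.56.

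Median centring moved the proteasome median to 0.083 and the enzyme median to 0.0784, and all genes from -0.04 to 0.04. It also moved calls over all probe sets from 279 higher and 203 lower to 344 and 129. Without single arrays the proteasome median ran from -0.0291 to 0.0692 and the enzyme median from -0.033 to 0.031. Dim or X-linked ones among the 30 genes followed were missing from settings that filtered them out. Among the 30, signs turned for Psmc1 with median centring (0.0129) and Psme1 with the mean of its probe sets (0.27). The sign of Psmc3ip turned without wild type replicate 3 (-0.298), and its highest value without 1 array was 0.606. None of these was called, and causes were not tested. Over whole families, median centring also moved the split of differences above and below 0 to 14 and 0 for the non-ATPase genes (from 11 and 3), 3 and 4 for the beta ring (from 1 and 6) and 12 and 9 for the E2 genes (from 10 and 11). Over all probe sets, calls without a trend were 82 higher and 50 lower, with the replicate block 200 and 119, and without single arrays 150 to 246 and 98 to 174. Replicate numbers were not found to pair the samples, as deviations of same-numbered samples correlated at -0.05, -0.01 and -0.08. Usp48 lost its call under the block (adjusted p = 0.0639). For genes at background no change could be measured.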
